A study of Homo sapiens with 10 samples.

Results

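CCAR1, its paralog CCAR2 and 8 genes of the nuclear receptor and beta-catenin pathways in which these coactivators work were followed in human RPE p53-/- cells with and without CCAR1. The members were the rows of the deposited count table whose gene name was CCAR1, CCAR2, CALCOCO1, NCOA1, NCOA2, NCOA3, NR3C1, CTNNB1, FKBP5 or TSC22D3. All 10 names were found once each among 62700 genes, and all 10 were among the 18979 genes that passed the filter on low counts. The series asked how losing CCAR1 affects RNA levels across the genome and contains 5 libraries of parental control cells and 5 of CCAR1 knockout cells. Both groups lack p53 and were grown in DMEM/F12 with GlutaMAX and 10% fetal bovine serum. No hormone or other added agent is named in the labels. The labels do not say whether each of the 5 replicates was its own culture, nor whether the knockout line was 1 clone. The p-values thus reflect only the spread among these libraries, possibly a technical one, and the genotypes may differ by more than CCAR1.

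A nuclear receptor that has bound its hormone recruits coactivators to its target genes. The p160 coactivators NCOA1, NCOA2 and NCOA3 bind the receptor directly and bring in secondary coactivators, among them CALCOCO1 and CCAR1, which also link receptors to Mediator and to beta-catenin. CCAR2, known also as DBC1, is an inhibitor of the deacetylase SIRT1 and a cofactor of several nuclear receptors. The glucocorticoid receptor, encoded by NR3C1, switches on FKBP5 and TSC22D3 in many tissues. FKBP5 encodes a chaperone that lowers the affinity of the receptor for hormone, and TSC22D3 encodes GILZ, an anti-inflammatory protein.

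Libraries fell into 2 depth classes, which the labels do not mention. Replicates 1 to 3 of each genotype, called shallow here, held 52.6 to 65.2 M counts (M, 1e6), and replicates 4 and 5, called deep, held 320.6 to 385.4 M. Of the 9 retinal pigment epithelium markers examined, 6 averaged under 1 CPM (counts per 1e6, after library sizes were scaled), RPE65, TYR and TTR among them, whereas MITF, a transcription factor of pigment cells, averaged 39.1 CPM in parental cells and 38.3 CPM in the knockout. The epithelial keratin KRT18 averaged 217 and 183 CPM, while CDH1 and EPCAM averaged under 1 CPM. The depth classes differed in 16 markers of skeletal muscle, erythroid cells and liver. Their summed level was 354 to 533 CPM in shallow parental, 337 to 419 CPM in shallow knockout, 0.957 to 1.13 CPM in deep parental and 1.82 to 1.85 CPM in deep knockout libraries. With depth class as a term, all 10 members differed between deep and shallow libraries, as did 69.3% of all genes. CCAR1, NCOA1, NCOA2, NCOA3, NR3C1, CTNNB1 and FKBP5 were higher in the deep libraries, by 0.13 to 0.62 on the log2 scale, and CCAR2, CALCOCO1 and TSC22D3 were lower. The part of these tissue transcripts in the differences between depth classes was not tested.

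In the knockout cells NCOA3 and TSC22D3 rose, CCAR1 and FKBP5 fell, and 6 members did not pass the test. These 4 of 10 calls stand beside 36.6% of all genes tested, of which 19.7% were higher and 16.9% lower (edgeR quasi-likelihood test, Benjamini-Hochberg adjusted p under 0.05). The share of members called was thus near that of all genes. The median log2 fold change of the members was -0.03, against 0.02 for all genes tested. NCOA3, FKBP5 and TSC22D3 showed no overlap between the 5 parental and the 5 knockout values, 3 of 10 members against 30.6% of all genes. Within each depth class 6 members were apart in the same direction, against 54% of all genes.

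**Figure D1:**
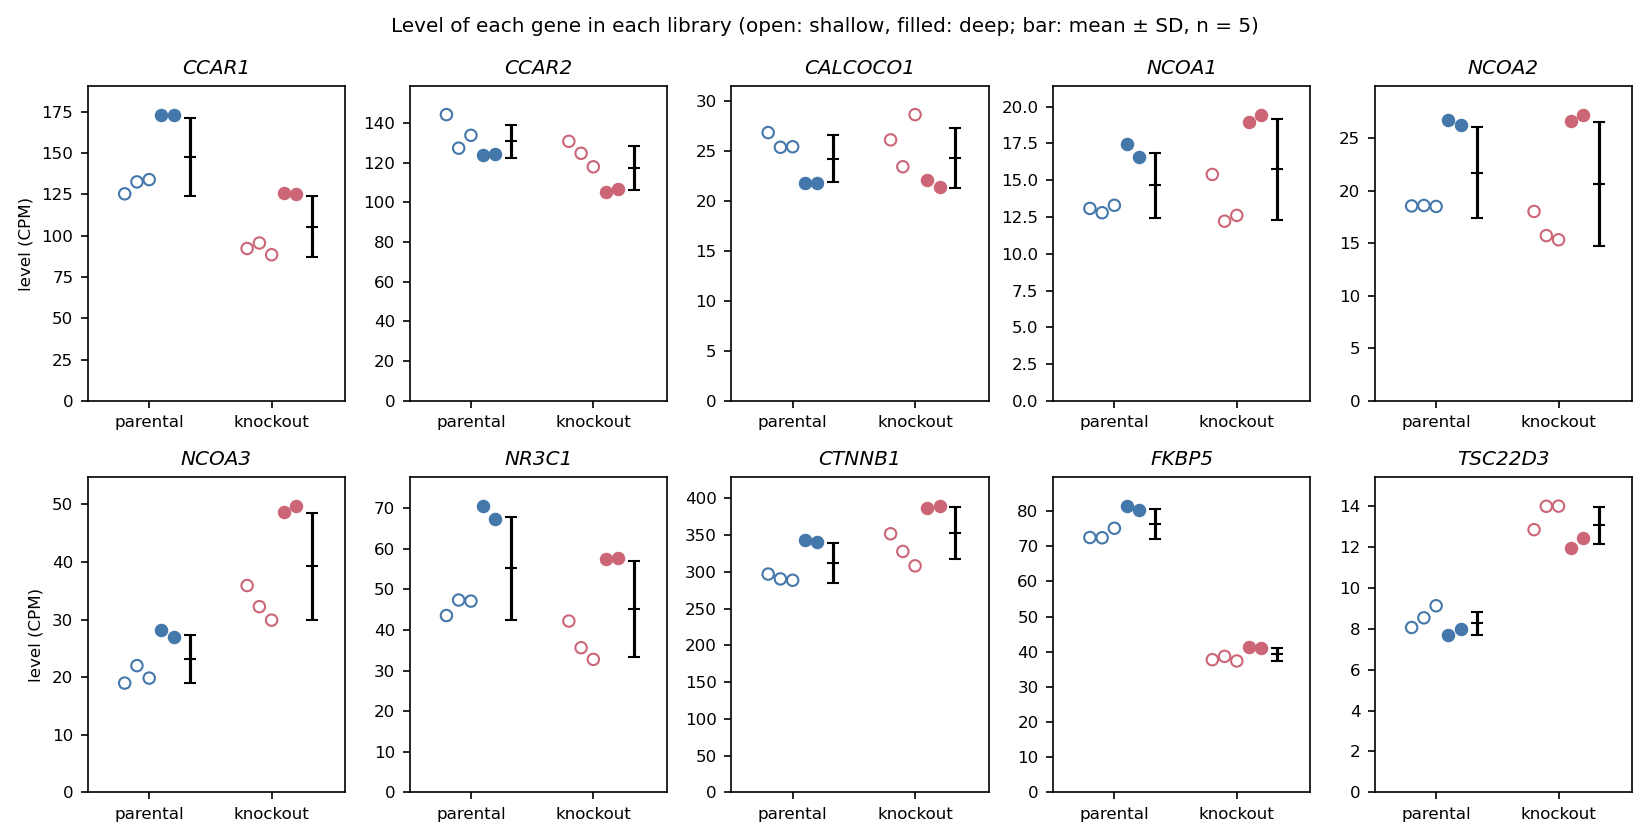
Level in CPM (y axis, from 0) of the 10 genes in each of the 5 parental (blue) and 5 knockout (red) libraries, with open circles for shallow and filled circles for deep libraries and a black bar for the mean ± SD (n = 5). The genotypes do not overlap for NCOA3, FKBP5 and TSC22D3, and for most other genes the gap between open and filled circles is larger than that between genotypes.

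CCAR1, the targeted gene (ENSG00000060339.14, chromosome 10, 68721012 to 68792377, plus strand, GRCh38), was read at 125, 133, 134, 173 and 173 CPM in parental replicates 1 to 5. In the knockout it was read at 92.3, 95.6, 88.5, 126 and 126 CPM. The deep knockout libraries reached the level of the lowest shallow parental library, so the groups overlapped, but within each depth class every knockout value lay under every parental value. The mean fell from 148 ± 23.5 CPM to 106 ± 18.5 CPM (SD, n = 5), which left 71.4% of the parental level. This corresponds to a log2 fold change of -0.48 (SE 0.14, 95% confidence interval -0.80 to -0.17), with an adjusted p of 0.0201 in edgeR's quasi-likelihood test and p = 0.0238 in an exact two-sided permutation of the 10 libraries. Without parental replicate 5 it missed the threshold (-0.42, adjusted p 0.0504). It also did so with library sizes left unscaled (-0.42, adjusted p 0.0525). The same happened after the median change of protein-coding genes on chromosome 10, -0.18, was subtracted (-0.31, adjusted p 0.121). Shallow libraries alone gave -0.51 and deep libraries alone -0.48. Most CCAR1 RNA therefore remained in the cells labelled knockout. Counts over a whole gene do not show whether a small edit removed the protein, and where the gene was edited is not stated in the labels.

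The genes whose log2 CPM followed CCAR1 most closely over the 10 libraries, among 10723 genes with a mean of at least 5 CPM, were CBLL1 (Pearson r 0.998), SPART (0.998), IMPA1 (0.997), SNX14 (0.997) and SYNCRIP (0.997). They lie on chromosomes 7, 13, 8, 6 and 6, in that order. The median log2 fold changes of protein-coding genes there were -0.30 (chromosome 7), -0.41 (13), -0.08 (8) and -0.32 (6). A high coefficient was common, since 1752 genes exceeded 0.9, and all 10 points share the difference in depth class as well as genotype. Among the members NR3C1 came closest at 0.898, followed by FKBP5 at 0.835 and NCOA2 at 0.746. TSC22D3, at -0.854, ran most strongly in the opposite direction.

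CCAR2, the paralog (ENSG00000158941.17, chromosome 8), was read at 144, 127, 134, 124 and 125 CPM in parental and 131, 125, 118, 105 and 107 CPM in knockout libraries. The values overlapped among the shallow libraries, while both deep knockout libraries lay under every parental library. Means were 131 ± 8.45 CPM for parental and 117 ± 11.1 CPM for knockout libraries (SD, n = 5). The log2 fold change was -0.16 (95% confidence interval -0.33 to 0.01, edgeR adjusted p 0.140). With the replicate number as a block it was -0.16 with an adjusted p of 0.00535. CCAR2 RNA was thus not called higher in cells with less CCAR1 RNA. The upper limit of 0.01 holds for the fit with genotype only. Corrected for the median of chromosome 8, CCAR2 stood at -0.08 (95% confidence interval -0.26 to 0.09, edgeR adjusted p 0.469). Unscaled library sizes gave -0.11 (adjusted p 0.279). A small increase is therefore not left out in every setting.

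The ratio of CCAR1 to CCAR2 counts within a library does not depend on library scaling. It was 0.870, 1.04, 1.00, 1.40 and 1.39 in parental replicates 1 to 5 and 0.706, 0.767, 0.751, 1.19 and 1.17 in the knockout. The geometric mean went from 1.12 to 0.894, a log2 difference of -0.33 that did not pass an exact two-sided permutation test over the 10 libraries (p = 0.175). Within each depth class all knockout ratios lay under all parental ratios, by 0.39 on the log2 scale in shallow and 0.24 in deep libraries. With 3 against 3 libraries the smallest p is 0.1, and with 2 against 2 it is 0.333.

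CALCOCO1 (ENSG00000012822.16, chromosome 12, 53708517 to 53727745, minus strand), the coiled-coil coactivator that binds p160 proteins, was read at 26.8, 25.3, 25.4, 21.7 and 21.8 CPM in parental libraries. In the knockout it was read at 26.1, 23.4, 28.6, 22.1 and 21.4 CPM. The ranges overlapped almost completely, with means of 24.2 ± 2.31 and 24.3 ± 2.99 CPM (SD, n = 5). Its log2 fold change was 0.0059, with a 95% confidence interval of -0.21 to 0.23 (edgeR adjusted p 0.975). Its sign turned under other scalings.

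Of the 3 p160 genes 1 was called. NCOA3, also called SRC-3 or AIB1 and amplified in some breast cancers, rose, whereas NCOA1 and NCOA2, the closest relatives of NCOA3, did not pass the test. NCOA3 (ENSG00000124151.19, chromosome 20, 47501902 to 47656877, plus strand) was read at 19.0, 22.0, 19.8, 28.2 and 27.0 CPM in parental and 35.9, 32.2, 29.9, 48.7 and 49.7 CPM in knockout libraries. Every knockout library lay above every parental library, including the shallow knockout against the deep parental libraries. The mean rose from 23.2 ± 4.19 to 39.3 ± 9.29 CPM (SD, n = 5), a 1.69-fold difference. The log2 fold change was 0.76 (SE 0.18, 95% confidence interval 0.37 to 1.15, edgeR adjusted p 0.00632), and the exact permutation p was 0.00794, the smallest that 5 against 5 libraries can give. It was 0.68 in shallow and 0.82 in deep libraries, and the call held in all 20 alternative settings.

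NCOA1 (ENSG00000084676.16, chromosome 2, 24491914 to 24770702, plus strand), the first steroid receptor coactivator described, was read at 13.1, 12.8, 13.3, 17.5 and 16.6 CPM in parental libraries. In the knockout it was read at 15.4, 12.2, 12.6, 19.0 and 19.5 CPM. Shallow values overlapped, and the deep knockout libraries were the highest of all. Its log2 fold change was 0.10 (95% confidence interval -0.25 to 0.45, edgeR adjusted p 0.672), and in the deep libraries alone it was 0.16 with an adjusted p of 9.49e-04.

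NCOA2 (ENSG00000140396.13, chromosome 8), also called GRIP1 or TIF2 and a coregulator of the glucocorticoid receptor, was read at 18.6, 18.6, 18.5, 26.7 and 26.2 CPM in parental libraries. In the knockout it was read at 18.0, 15.7, 15.3, 26.7 and 27.3 CPM. The shallow knockout libraries lay below the shallow parental ones, while the deep libraries of the genotypes overlapped. Over all libraries the log2 fold change was -0.07 (95% confidence interval -0.52 to 0.37, edgeR adjusted p 0.827). It was -0.19 in shallow libraries (adjusted p 0.0399) and 0.0091 in deep libraries (adjusted p 0.807). The test of that difference, the interaction of genotype and depth class in edgeR, gave 0.21 on the log2 scale (SE 0.084) with an edgeR adjusted p of 0.229. No member passed this interaction test after adjustment, NCOA2 alone had an unadjusted p under 0.05, and 0.601% of all genes passed. Without knockout replicate 1, the highest shallow knockout library for both genes, NCOA2 (0.28, edgeR adjusted p 0.00960) and NCOA1 (0.25, adjusted p 0.0415) passed, as did 12.5% of all genes.

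As a share of all counts assigned to the 3 p160 genes, NCOA3 made up 38.9% ± 1.38 in parental and 52.0% ± 0.858 in knockout libraries (SD, n = 5). The highest parental share was 41.2% and the lowest knockout share 51.5%, and the depth classes lay together in each genotype. NCOA2 held 36.4% ± 1.05 and 27.0% ± 1.14, and NCOA1 24.7% ± 1.02 and 20.9% ± 0.999. Divided by the length of the principal transcript, NCOA3 made up 52.2% ± 1.45 and 64.9% ± 0.773 of the family. The majority in parental cells depends on the length chosen. With all exons merged the parental means were 2.76 CPM per kb for NCOA3, 2.17 for NCOA2 and 1.70 for NCOA1. In the knockout they were 4.67, 2.06 and 1.82. The summed level of the family was 59.6 ± 10.6 CPM for parental and 75.6 ± 18.5 CPM for knockout libraries, with ranges that overlapped across depth classes. Within a class they were apart, at 50.6 to 53.4 against 57.8 to 69.3 CPM in shallow and 69.8 to 72.4 against 94.3 to 96.4 CPM in deep libraries, and the knockout sum was the higher in 5 of 5 same-numbered pairs. The count ratio of NCOA3 to NCOA1 was 1.45 to 1.72 in parental and 2.33 to 2.64 in knockout libraries, and that of NCOA3 to NCOA2 was 1.02 to 1.18 and 1.82 to 2.05, with no overlap in either. These shares and ratios follow from the same NCOA3 counts and are a description of them.

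**Figure D2:**
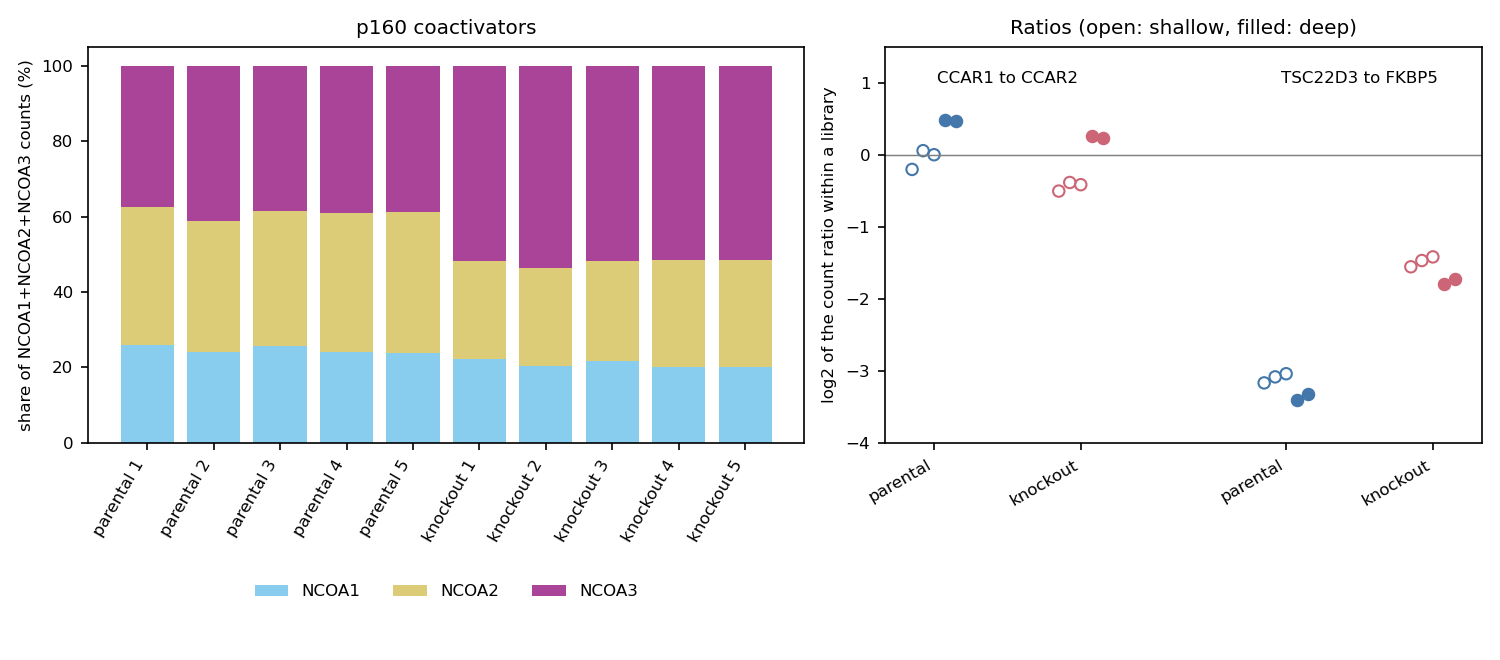
Left, share in percent of the summed NCOA1, NCOA2 and NCOA3 counts in each of the 10 libraries, as stacked bars. Right, log2 of the ratio of CCAR1 to CCAR2 counts and of TSC22D3 to FKBP5 counts in each library (open, shallow; filled, deep), in which the CCAR1 ratio follows depth class as well as genotype and the TSC22D3 ratio is at most 0.121 in parental and at least 0.290 in knockout libraries.

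NR3C1, the glucocorticoid receptor (ENSG00000113580.15, chromosome 5, 143277931 to 143435512, minus strand), was read at 43.5, 47.3, 47.1, 70.5 and 67.3 CPM in parental libraries. In the knockout it was read at 42.2, 35.6, 32.7, 57.4 and 57.6 CPM. Knockout values lay under parental values within each depth class, and the difference between depth classes was larger than that between genotypes. Means were 55.1 ± 12.7 CPM for parental and 45.1 ± 11.8 CPM for knockout libraries (SD, n = 5). On the log2 scale the fold change was -0.29 (95% confidence interval -0.74 to 0.16, edgeR adjusted p 0.310), and with the replicate block -0.30 with an adjusted p of 0.00201. In bulk RNA, fewer cells that express a gene and less RNA per cell cannot be told apart.

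The 2 receptor targets among the members moved in opposite directions. FKBP5 (ENSG00000096060.15, chromosome 6, 35573585 to 35728583, minus strand) was read at 72.5, 72.4, 75.1, 81.4 and 80.2 CPM in parental and 37.7, 38.7, 37.4, 41.3 and 41.1 CPM in knockout libraries. The highest knockout library was far below the lowest parental library, and the depth classes differed little. The mean fell from 76.3 ± 4.24 to 39.2 ± 1.85 CPM (SD, n = 5), to 51.4% of the parental level. The log2 fold change was -0.96 (SE 0.062, 95% confidence interval -1.10 to -0.82, edgeR adjusted p 1.23e-06, exact permutation p 0.00794). Protein-coding genes of chromosome 6 had a median change of -0.32, and with it subtracted FKBP5 stood at -0.64 (adjusted p 2.32e-05).

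TSC22D3 (ENSG00000157514.18, chromosome X, 107713221 to 107777342, minus strand) was the least counted member, with at least 483 counts in every library. It was read at 8.06, 8.53, 9.12, 7.69 and 7.98 CPM in parental and 12.8, 14.0, 14.0, 12.0 and 12.4 CPM in knockout libraries. All knockout libraries lay above all parental ones. The mean rose from 8.28 ± 0.561 to 13.0 ± 0.916 CPM (SD, n = 5), which is 1.58-fold. This is a log2 fold change of 0.66 (SE 0.076, 95% confidence interval 0.49 to 0.83, edgeR adjusted p 7.63e-05, exact permutation p 0.00794). The calls of FKBP5 and TSC22D3 held in all 20 alternative settings. The count ratio of TSC22D3 to FKBP5 was 0.0945 to 0.121 in parental and 0.290 to 0.374 in knockout libraries, and its geometric mean was 3.06-fold higher in the knockout.

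Sequence upstream of the start was taken for FKBP5 and NCOA3, the members with the largest fall and rise, from RefSeq (GRCh38.p14). Both stretches run 5′ to 3′ on the strand of the gene and end at the base before an annotated start. Capitals mark CG dinucleotides, the sites of DNA methylation, of which the FKBP5 stretch has 3 and the NCOA3 stretch 25.
FKBP5, chr6:35728584-35728833, minus strand: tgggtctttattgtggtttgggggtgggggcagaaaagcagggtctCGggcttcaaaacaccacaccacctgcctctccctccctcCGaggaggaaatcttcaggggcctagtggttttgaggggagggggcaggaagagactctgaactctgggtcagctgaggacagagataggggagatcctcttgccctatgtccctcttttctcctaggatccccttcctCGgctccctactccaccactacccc
NCOA3, chr20:47501637-47501886, plus strand: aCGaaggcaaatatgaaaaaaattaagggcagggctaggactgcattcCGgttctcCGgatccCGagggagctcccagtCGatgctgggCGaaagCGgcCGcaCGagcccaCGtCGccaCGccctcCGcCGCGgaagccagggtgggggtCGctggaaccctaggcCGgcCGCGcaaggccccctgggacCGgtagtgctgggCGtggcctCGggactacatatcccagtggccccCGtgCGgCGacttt

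The FKBP5 stretch, at the more distal of its 2 listed starts, is 57.6% G and C, and the one at its inner start is 74.8% with 29 CG dinucleotides. The NCOA3 stretch is 66.4% G and C. Across 35116 such RefSeq stretches of equal length the medians were 58% and 11 CG dinucleotides. For 7 of the 10 members 19 stretches were matched, several of them to alternative starts of 1 gene. None of the 19 held the glucocorticoid half-site TGTTCT on either strand, which 12.4% of all stretches held, or the full element made of 2 inverted half-sites, found in 1 of all stretches. The TCF/LEF core CTTTGAT, present in 2.26% of all stretches, was in none, and the GC box GGGCGG was in 13 of 19 against 42.6% of all. These counts describe letters near the starts only. The counts do not separate transcripts by start.

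CTNNB1, which encodes beta-catenin (ENSG00000168036.18, chromosome 3, 41194741 to 41260096, plus strand), was the most abundant member. It was read at 297, 290, 289, 343 and 341 CPM in parental and 352, 328, 308, 387 and 390 CPM in knockout libraries. Knockout values were above parental values within each depth class and overlapped them across classes. Means were 312 ± 27.6 CPM for parental and 353 ± 35.7 CPM for knockout libraries (SD, n = 5). On the log2 scale the fold change was 0.18 (95% confidence interval -0.02 to 0.37, edgeR adjusted p 0.143), and with the replicate block 0.18 with an adjusted p of 0.00237.

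How many members were called depended on how depth class was treated. With the replicate block 3 members were higher and 4 lower, against 61.2% of all genes, the additions being CTNNB1, CCAR2 and NR3C1. With depth class as a term the same members were called, against 64% of all genes. The standard errors of the members' log2 fold changes ran from 0.062 to 0.20 without the term and from 0.030 to 0.058 with it. In the shallow libraries alone 7 members were called, against 52.7% of genes, and in the deep libraries alone 8, against 57%.

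**Figure D3:**
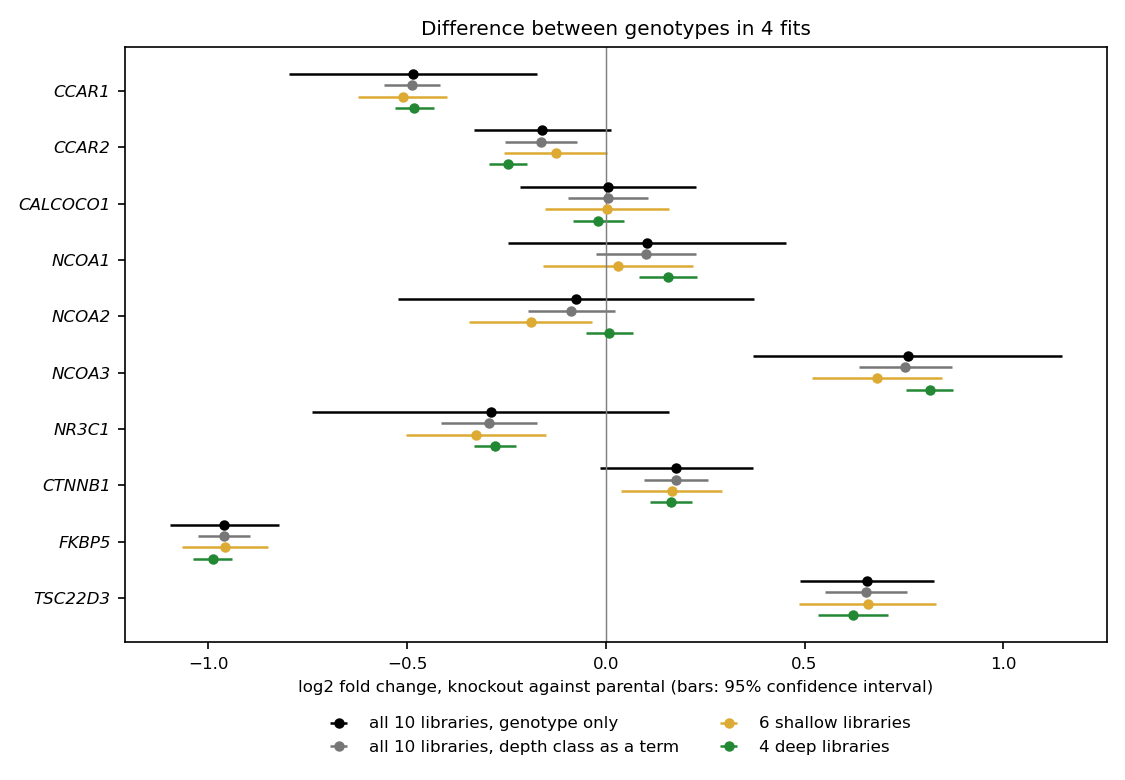
Log2 fold change of the knockout against parental cells (x axis) for each member, with 95% confidence intervals, from all 10 libraries with genotype only (black), with depth class as a term (grey), from the 6 shallow (yellow) and from the 4 deep (green) libraries. For most members the estimates lie close together. Shallow and deep estimates differ more for CCAR2 (-0.13 and -0.25), NCOA1 (0.03 and 0.16), NCOA2 (-0.19 and 0.0091) and NCOA3 (0.68 and 0.82). The intervals narrow once depth class is in the fit. Only those of CCAR1, NCOA3, FKBP5 and TSC22D3 stay clear of 0 in all 4.

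Compared per kilobase of principal transcript, the level in parental cells was highest for CTNNB1 (65.9 ± 5.83 CPM per kb, SD, n = 5), followed by CCAR1 (31.5 ± 5.03), CCAR2 (26.9 ± 1.74), FKBP5 (19.4 ± 1.08) and CALCOCO1 (10.6 ± 1.01). NR3C1 (7.57 ± 1.74 CPM per kb), NCOA3 (4.97 ± 0.897), TSC22D3 (3.65 ± 0.248), NCOA2 (2.57 ± 0.514) and NCOA1 (1.98 ± 0.298) came after. The ranges overlapped between the neighbours CCAR1 and CCAR2, CALCOCO1 and NR3C1, NR3C1 and NCOA3, and NCOA2 and NCOA1. In the knockout CCAR2 (24.1 ± 2.28 CPM per kb) stood beside CCAR1 (22.5 ± 3.95) with overlapping ranges, and NCOA3 (8.41 ± 1.99) overlapped FKBP5 (9.96 ± 0.471), which it had been far below in parental cells. The order depends on the length chosen, since with all exons merged NR3C1 and NCOA3 came before CALCOCO1 in parental cells.

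Beyond the members, 145 genes in 8 lists of related function were examined, of which 126 were tested, 17 rose and 27 fell. That is 34.9% called, beside 36.6% of all genes tested. Lists overlap in a few genes. With the replicate block, which called 61.2% of all genes, each list had more calls. Among partners of CCAR1 and CCAR2, 3 of 11 tested fell and none rose (27.3%, beside 36.6% of all genes), with a median log2 fold change of -0.17 against 0.02 for all genes. HDAC3, a deacetylase bound by CCAR2, fell from 91.9 ± 1.33 to 77.7 ± 3.84 CPM (SD, n = 5, edgeR adjusted p 0.00458). MED1, the Mediator subunit that nuclear receptors contact, fell from 97.2 ± 18.2 to 56.6 ± 14.6 CPM (adjusted p 0.00749), a call that was lost after the median of its chromosome 17 was subtracted (log2 fold change -0.50, adjusted p 0.0634). The histone methyltransferase SUV39H1 was the other that fell (log2 fold change -0.32, edgeR adjusted p 0.00935). With the replicate block 1 partner was higher and 9 were lower, 90.9% beside 61.2% of all genes.

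Of 18 other coactivators 1 rose and 4 fell (27.8%, beside 36.6% of all genes), with a median of -0.14. TRIM24, a coregulator of the retinoic acid receptor, fell from 34.0 ± 1.82 to 22.2 ± 1.03 CPM (SD, n = 5, log2 fold change -0.62, edgeR adjusted p 2.63e-05), and stood at -0.32 with the chromosome 7 median subtracted (adjusted p 0.00239). NCOA5, a coactivator outside the p160 family, fell from 67.1 ± 1.88 to 50.4 ± 2.16 CPM (adjusted p 1.72e-04). PPARGC1B, a coactivator of mitochondrial genes, rose from 2.11 ± 0.267 to 5.21 ± 0.982 CPM (adjusted p 6.48e-05). MED1 and PPRC1 were the others that fell. With chromosome medians subtracted neither MED1 nor PPRC1 (-0.09, edgeR adjusted p 0.173) was called any longer, which left 2 coactivators lower. Of 11 corepressors none rose and 4 fell (36.4%, beside 36.6% of all genes), namely HDAC2, HDAC3, NCOR1 and HDAC1, with a median of -0.24. The call of NCOR1 was lost with the chromosome 17 median subtracted (-0.38, edgeR adjusted p 0.117). That of HDAC1 was lost in 10 of 20 settings, among them without parental replicate 1, 3, 4 or 5 or knockout replicate 4 or 5 (adjusted p up to 0.0775). HDAC2 went from 222 ± 26.5 to 146 ± 14.3 CPM (log2 fold change -0.60, edgeR adjusted p 7.21e-04), and its call held at -0.28 with the chromosome 6 median subtracted (adjusted p 0.0486). With the replicate block 2 coactivators were higher and 9 lower (61.1%), and 9 corepressors were lower (81.8%), beside 61.2% of all genes.

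Of 33 nuclear receptors tested 9 rose and 8 fell, 51.5% beside 36.6% of all genes, with a median of 0.02. Leaving out any 1 library gave 37.1% to 48.6%, lowest without parental replicate 5 or knockout replicate 3, and medians from -0.12 (without knockout replicate 3) to 0.04. In both of the lowest fits 35 receptors were tested, and fewer of all genes were called as well. Of 19152 genes 3331 were higher and 2765 lower without parental replicate 5. Of 19547 genes 3318 were higher and 3014 lower without knockout replicate 3. The median was below 0 without parental replicate 4 or 5 or knockout replicate 1, 2 or 3. NR3C2, the mineralocorticoid receptor and closest relative of NR3C1, fell 9.80-fold, from 2.22 ± 0.322 to 0.233 ± 0.0811 CPM (SD, n = 5, edgeR adjusted p 2.51e-06), on 2126 counts in parental and 166 in knockout libraries. NR0B1, an orphan receptor, had 258 counts over the parental and 4 over the knockout libraries (adjusted p 7.81e-05). RARG, a retinoic acid receptor, rose from 26.9 ± 2.88 to 70.2 ± 7.14 CPM (log2 fold change 1.39, adjusted p 2.42e-06). NR1D1, the clock repressor REV-ERB alpha, rose from 7.18 ± 0.768 to 13.8 ± 1.01 CPM (log2 fold change 0.95, adjusted p 1.84e-05).

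Of 8 tested genes that chaperone the glucocorticoid receptor or supply its hormone, 1 rose and 2 fell, 37.5% beside 36.6% of all genes. HSD11B1, the enzyme that turns cortisone into active cortisol, rose from 1.29 ± 0.154 to 3.30 ± 0.206 CPM (SD, n = 5, log2 fold change 1.35, edgeR adjusted p 4.36e-06). The chaperone HSP90AB1 fell from 2358 ± 138 to 1563 ± 67.1 CPM (log2 fold change -0.59, adjusted p 2.27e-05), and stood at -0.27 with the chromosome 6 median subtracted (adjusted p 0.00423). HSP90AA1 went from 4412 ± 802 to 3161 ± 513 CPM (adjusted p 0.0228), and its call was lost in 5 of 20 alternative settings, among them without parental replicate 4 or 5 or knockout replicate 1 (adjusted p 0.0508 to 0.0567).

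Of 19 other glucocorticoid receptor targets tested 2 rose and 3 fell, 26.3% beside 36.6% of all genes, with a median of 0.14. That median had no stable sign. It was -0.08 without knockout replicate 1, -0.02 without parental replicate 4, -0.0045 without parental replicate 5 and -0.03 in deep libraries, and 0.02 and 0.03 without knockout replicates 2 and 3. Like FKBP5 and TSC22D3, they did not move in 1 direction. ANGPTL4, a secreted inhibitor of lipoprotein lipase, rose from 0.560 ± 0.114 to 1.99 ± 0.291 CPM (SD, n = 5, log2 fold change 1.83, edgeR adjusted p 1.32e-05). KLF9, a transcription factor, fell from 5.24 ± 0.233 to 3.56 ± 0.640 CPM (log2 fold change -0.56, adjusted p 0.00467). SLC19A2, a thiamine transporter, fell from 9.13 ± 1.14 to 5.75 ± 0.942 CPM (log2 fold change -0.67, adjusted p 0.00237). RGS2 rose (0.47, adjusted p 0.0253), a call lost in 5 of 20 settings, among them without parental replicate 3 or 4 or knockout replicate 2 (adjusted p 0.0512 to 0.0618), and BIRC3 was the other that fell. With the replicate block 6 targets were higher and 7 lower, 68.4% beside 61.2% of all genes, so the list lay below the background in 1 fit and above it in the other.

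Of 18 beta-catenin partners 3 rose and 2 fell (27.8%, beside 36.6% of all genes), with a median of -0.03 that was 0.03 with unscaled library sizes and -0.08 to -0.02 over omissions of 1 library. The DNA-binding partner TCF7 rose from 14.6 ± 1.28 to 19.8 ± 2.82 CPM (SD, n = 5, edgeR adjusted p 0.00825) and the adaptor BCL9 from 9.73 ± 0.540 to 12.7 ± 1.00 CPM (adjusted p 0.00264). TCF7L2 fell from 46.7 ± 3.28 to 38.5 ± 2.22 CPM (adjusted p 0.00891), a call lost with the chromosome 10 median subtracted (log2 fold change -0.10, adjusted p 0.296) and with no filter on low counts (adjusted p 0.0524). CTNNA1, alpha-catenin, went from 403 ± 23.0 to 343 ± 32.1 CPM (adjusted p 0.0318), a call lost in 7 of 20 settings, among them without parental replicate 4 or 5 or knockout replicate 1, 2 or 3 (adjusted p 0.0578 to 0.0770). TCF7L1 was the other that rose.

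Of 12 beta-catenin targets tested 2 rose and 3 fell, 41.7% beside 36.6% of all genes, with a median of -0.41, and -0.24 with the replicate block. The median lay between the estimates of NKD1 (-0.48, SE 1.47) and RNF43 (-0.34, SE 1.30), both poorly determined. Over the parental libraries NKD1 ran from 0.029 to 5.28 CPM and RNF43 from 0.010 to 1.05 CPM. SP5 (0 to 2.47 CPM, SE 1.71) and NOTUM (0.044 to 3.85 CPM, SE 1.38) were as uneven. The median depended on single libraries. It was -0.07 without parental replicate 2, -0.11 without parental replicate 3, and -0.15 without knockout replicate 4 or 5. It was -0.66 and -0.68 without parental replicates 4 and 5, and -0.81 and -0.75 without knockout replicates 1 and 2. CCND1, cyclin D1, fell from 1382 ± 66.8 to 647 ± 33.5 CPM (SD, n = 5, log2 fold change -1.09, edgeR adjusted p 3.10e-07). DKK1, a secreted Wnt antagonist, fell from 291.5 ± 10.0 to 97.5 ± 5.16 CPM (log2 fold change -1.58, adjusted p 2.13e-08). The R-spondin receptor LGR5 was the third that fell, from 9.19 ± 1.09 to 0.238 ± 0.168 CPM (adjusted p 9.52e-06). TNFRSF19, a receptor of the tumour necrosis factor family, rose from 1.71 ± 0.347 to 3.29 ± 0.317 CPM (log2 fold change 0.95, adjusted p 5.24e-04), as did TCF7. Outside the rule for naming genes, SUV39H1, PPRC1, NCOR1, HDAC1, BIRC3, TCF7L1 and LGR5 were named after their values were seen.

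**Figure D4:**
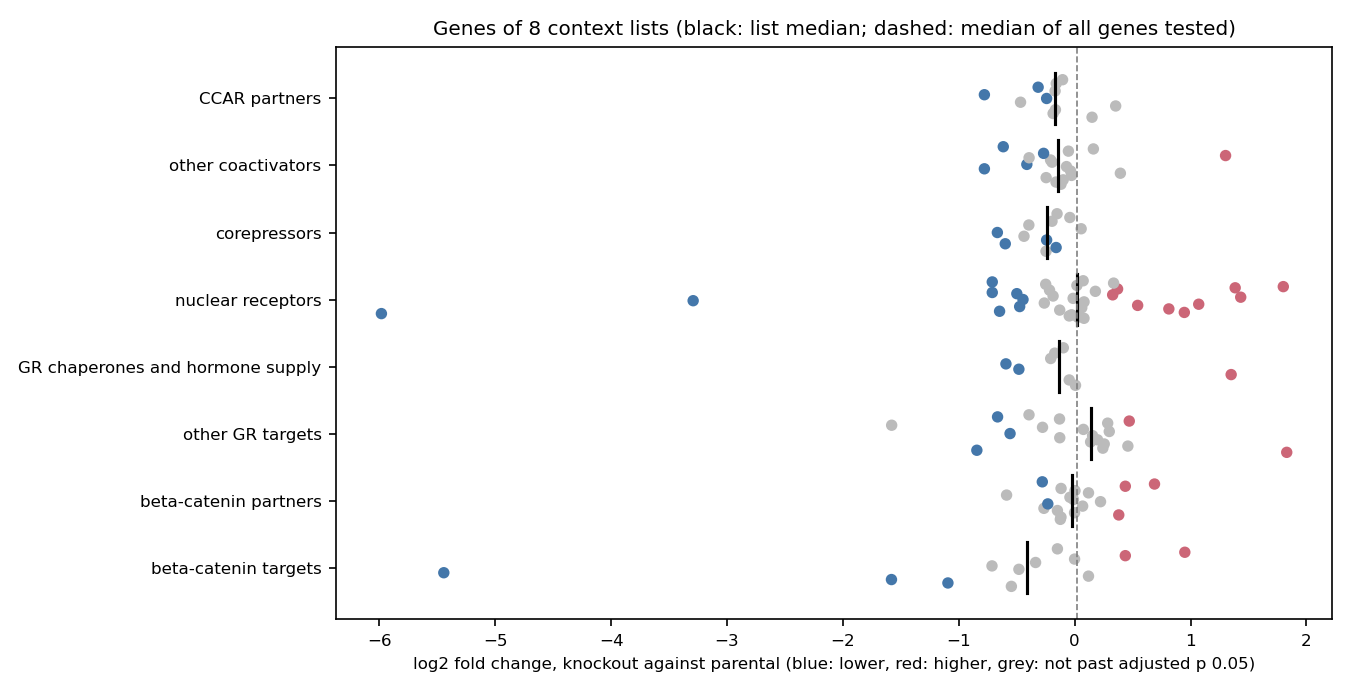
Log2 fold change of the knockout against parental cells (x axis) for each tested gene of the 8 lists (y axis), in blue where lower, red where higher and grey where the adjusted p was 0.05 or above. Black marks give the median of each list and the dashed line that of all genes tested, 0.02. The medians lie between -0.41 and 0.14, and single genes such as LGR5, NR3C2 and NR0B1 lie far from them.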

How the data were processed

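Polyadenylated RNA of 5 parental and 5 knockout libraries was sequenced on a NovaSeq after NEBNext Ultra II preparation, per the labels' protocols. The deposited values are estimated counts, 1 expected count for each gene in each library, made by the authors with kallisto 0.48.0 and hg38, per the submitters' processing notes. Not given in the sources used here were the annotation, how transcripts were summed to genes and the strand setting, so genes that overlap are uncertain, and paralogs such as the p160 genes may exchange counts. No scaling for depth or length was found in the values.

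Counts were rounded, filtered with filterByExpr and scaled by TMM. A robust quasi-likelihood model with genotype was fitted in edgeR 4.0.16 (R 4.3.3) over all genes, p-values being adjusted by Benjamini-Hochberg (threshold 0.05). CPM are counts per 1e6 after that scaling. The prior count for log2 CPM was 3. Each SE is the absolute log2 fold change divided by the square root of its quasi-likelihood F statistic. The 95% confidence intervals are built from that SE, so both are approximate. Chromosome medians are those of the protein-coding genes tested. Exact permutation tests used scipy 1.17.1. Positions are from GENCODE release 29 (GRCh38), matched by gene ID for 95.1% of genes tested. The fits were also run on simulated counts, with the outcome not reported here. Those counts were drawn independently for each library, so they cannot show how calls fare if replicates are technical. Libraries held 52.6 to 385.4 M counts (M, 1e6). Replicates were all kept apart, as each pair differed beyond counting noise (6.75 to 25.7 for chi-square per gene).

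The deviations of samples from their group means correlated at 0.584 to 0.899 across genes for samples with the same number, which pairs them by the rule used. The correlation was 0.594 to 0.901 for samples with different numbers within a depth class, and -0.776 to -0.725 between depth classes. The pairing thus follows depth class, not replicate number. The replicate block is printed where it changes a call.

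Members and gene lists were chosen with earlier results of these data known. Named genes are the members, the 2 with the smallest adjusted p in each direction of each list, and the 5 most correlated with CCAR1. Alternatives were DESeq2 1.42.0 and its size factors, unscaled library sizes, no filter or 1 CPM in 5 libraries, the replicate block, depth class as a term, each depth class alone, chromosome medians subtracted, and each library left out.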

Additional observations from a re-analysis of the deposited data

How the results depend on the processing

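NCOA3, FKBP5 and TSC22D3 kept their direction and call in all 20 alternatives. CCAR1 kept its direction but lost its call with unscaled library sizes (log2 fold change -0.42), without parental replicate 5 (-0.42) and when chromosome medians were subtracted (-0.31), and leaving out single libraries gave -0.56 to -0.42. The CALCOCO1 sign turned with DESeq2 size factors and with DESeq2 (both -0.024), with no filter (-0.0090) and in deep libraries (-0.019), and ran from -0.066 to 0.050 over single omissions. The NCOA2 sign turned in deep libraries (0.0091) and with chromosome medians subtracted (9.99e-04), and ran from -0.19 to 0.0081 over single omissions. Members called lower numbered 1 with unscaled library sizes and with chromosome medians subtracted, 4 with the replicate block, with depth class as a term and in either depth class alone, and 1 to 2 over single omissions (1 without parental replicate 5). Members called higher numbered 4 in deep libraries. Over all genes, 5906 were higher and 5713 lower with the replicate block, 6200 and 5949 with depth class as a term, 7775 and 7545 in deep libraries, and 4931 lower in shallow libraries. Single omissions gave 3318 to 3709 higher and 2765 to 3196 lower. Over the 8 lists, 27 were higher and 60 lower with the block, 28 and 62 with the depth term, 26 and 49 in shallow and 29 and 69 in deep libraries. The block and the depth term were fitted on the same 126 tested genes of the lists. The share of all genes called also rose, to 61.2% with the block, 64% with the depth term, 52.7% in shallow and 57% in deep libraries. The interaction of genotype and depth class was called in 114 genes, in 1256 with no filter, and in 10 to 2451 over single omissions, the most without knockout replicate 1, where 2 members were called (0 to 2 over all omissions), and 10 to 20 without parental replicate 2, 4 or 5 or knockout replicate 2 or 5, and 65 without parental replicate 3. The CCAR1 to CCAR2 ratio with the replicate block, over same-numbered pairs, differed by -0.33 with an exact permutation p of 0.0625, the smallest that 5 pairs can give. Every knockout ratio lay under every parental ratio of its depth class, so any pairing within a class gives this p. It thus adds nothing to that description. Single omissions gave differences of -0.43 to -0.24. Where calls changed, the cause was not tested. Counts were few for NR0B1, with 4 in the knockout, and for other sparse genes of the lists. Among these were GATA1 (134 counts over parental and 155 over knockout libraries), RNF43 (133 and 103) and CDKN1C (135 and 146). GATA1 ran from 0 to 0.976 CPM over the parental libraries and did not pass the filter in the deep libraries alone. The part of depth in these low counts was not tested. Every member had at least 483 counts in every library.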
